A study of Homo sapiens with 10 samples.

Results

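The genes described here encode eIF4F, the complex that recruits ribosomes to capped mRNAs, together with its close relatives and inhibitors. EIF4E binds the methylated cap at the 5′ end of an mRNA, the EIF4G scaffolds hold it to the ribosome, and the EIF4A helicases unwind the leader. The EIF4EBP proteins compete with the scaffolds for EIF4E until mTOR complex 1 phosphorylates them, which makes the supply of free EIF4E a control point of protein synthesis. High EIF4E is known from many carcinomas, prostate cancer among them, and ribavirin, a guanosine analogue, has been reported to bind EIF4E and inhibit it.

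Members were 10 genes chosen by name: EIF4E, EIF4E2, EIF4E3, EIF4EBP1, EIF4EBP2, EIF4G1, EIF4G2, EIF4G3, EIF4A1 and EIF4A2. A probe set, the group of short oligonucleotides that reads 1 transcript on an Affymetrix array, was used where its annotation held exactly 1 of these symbols. On that rule 8 of the 10 genes had values, with 25 probe sets in all, while the arrays gave 14330 genes that were tested. EIF4E and EIF4EBP2 had 5 probe sets each, EIF4E2 and EIF4E3 had 4 each, EIF4G2 had 3, EIF4G1 had 2, and EIF4EBP1 and EIF4A2 had 1 each. EIF4A1 was read by 3 probe sets that carry further symbols and therefore has no value here, and EIF4A2 had 2 more of that kind. EIF4G3 was paired with 0 probe sets in the annotation table used here. Of the 25 probe sets 22 passed the filter on dim values, lying above the median of their array in at least 2 of 10 arrays.

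RNA came from 2 human prostate cancer lines: LNCaP, which was grown from a lymph node metastasis and depends on the androgen receptor, and DU145, which was grown from a brain metastasis and does not. In each line 1 array measured EOS cells number 2 treated with ribavirin, 2 arrays measured EOS cells and 2 arrays measured PGK cells. The EOS vector places GFP and puromycin resistance under enhancers that answer to OCT4 and SOX2, and cells carrying it were kept in puromycin for a few weeks. PGK cells, the controls, carried the same GFP and resistance genes under the ubiquitous PGK promoter, so that all 6 groups were transduced and untransduced cells were not analysed here. The dose and duration of ribavirin are not given in the sources used here. Whether both arrays of a group stem from separate cultures is not stated, so the p-values rest on a spread between arrays that could be technical alone.

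The values are mRNA levels on the scale log2(scaled intensity + 16), whose floor is 4, and they say nothing of protein or phosphorylation. Arrays numbered 1 and 2 differed in the 3′ to 5′ ratio of the ACTB probe sets. It was 3.20 to 3.99 in the 6 arrays numbered 2, against 1.24 to 1.51 in the 4 arrays numbered 1. For the GAPDH probe sets the ratio was 1.09 to 1.22 in number 2 and 0.96 to 1.06 in number 1. The source of the difference was not tested. Both ribavirin arrays belong to number 2. The line labels held: 4 of 4 measured LNCaP markers of a list of 6 were called higher in LNCaP, and 5 of 5 DU145 markers lower. The summed scaled intensity of leukocyte markers was 76.9 to 271 in the LNCaP arrays and 83.0 to 148 in the DU145 arrays. PTPRC and CD14 did not pass the filter, whereas CD3E and LYZ passed it and were not called. LYZ reached 7.70 log2 in LNCaP and 5.75 in DU145. Endothelial markers summed to 139 to 304 in the LNCaP arrays and 80.8 to 156 in the DU145 arrays. VWF was called higher in LNCaP, PECAM1 passed the filter without a call, at means of 7.13 in LNCaP and 6.74 in DU145, and CDH5 did not pass. Fibroblast markers summed to 284 to 780 in the LNCaP arrays and 377 to 3147 in the DU145 arrays. Among them COL3A1 and POSTN were called lower in LNCaP and LUM did not pass the filter. COL1A1, at means of 8.76 in LNCaP and 8.63 in DU145, and DCN passed it and were not called. The part of these markers in the differences below was not tested.

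The upstream bases of EIF4E and EIF4G1 are shown because both genes were called higher in LNCaP and are the members whose start-site windows hold CACGTG, the E-box that MYC-family proteins recognise. Each sequence covers the 250 bases before the RefSeq start on GRCh38.p14, read 5′ to 3′ on the strand of the gene, with the motif in capitals.
EIF4E, chr4:98929134-98929383, minus strand: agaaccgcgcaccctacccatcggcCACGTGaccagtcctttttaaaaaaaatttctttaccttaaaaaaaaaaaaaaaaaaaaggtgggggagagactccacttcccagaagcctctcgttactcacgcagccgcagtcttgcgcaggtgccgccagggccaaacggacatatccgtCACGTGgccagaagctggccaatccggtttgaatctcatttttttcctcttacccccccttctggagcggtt
EIF4G1, chr3:184314356-184314605, plus strand: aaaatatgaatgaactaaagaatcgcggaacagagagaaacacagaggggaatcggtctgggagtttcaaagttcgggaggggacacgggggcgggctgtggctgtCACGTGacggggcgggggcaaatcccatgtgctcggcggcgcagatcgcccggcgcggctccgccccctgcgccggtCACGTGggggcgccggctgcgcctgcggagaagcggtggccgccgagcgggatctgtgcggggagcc
In EIF4E the motif begins 225 and 72 bases before the start, and in EIF4G1 it begins 144 and 67 bases before it. The search covered 16 RefSeq windows of 300 bases, from 250 before to 50 after a start, for 9 of the 10 members, and EIF4EBP1 had no entry. CACGTG is its own reverse complement, so each match counts for both strands. It was found in 2 of the 16 windows, those of EIF4E and the first of 3 EIF4G1 starts, with 2 matches in each. Of 35116 such windows of all genes, 7.26% held the motif at least once and 0.66% at least 2 times. A match describes the letters of the window only.

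In LNCaP the cap-binding EIF4E and EIF4E2, the inhibitor EIF4EBP1 and the scaffolds EIF4G1 and EIF4G2 were higher at their lead probe set, the one with the highest mean. Among the lead probe sets EIF4EBP1 had the largest difference, 3.39-fold higher in LNCaP, whereas EIF4E was 1.60-fold higher. EIF4E3, an atypical cap binder, was lower in LNCaP at 225941_at, and at 225939_at, which passed the filter through its DU145 arrays alone. Of the 22 member probe sets 12 were called between the lines, 10 higher and 2 lower in LNCaP, in limma at an adjusted p under 0.05 over all 33488 probe sets. The background was large, with 41.8% of all probe sets called, 19.1% higher and 22.7% lower in LNCaP, against 54.5% of the member probe sets, a share not far from that background. Without the 2 member probe sets that passed the filter through 1 line alone, EIF4E3 225939_at and EIF4A2 1556350_a_at, 11 of 20 were called, 10 higher and 1 lower. The median difference was 0.39 log2 over the 22 member probe sets and -0.07 over all probe sets. The comparison averages the 3 states of each line, with 5 arrays a line, and the lines are not matched in origin or culture beyond what the labels give.

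**Figure D1:**
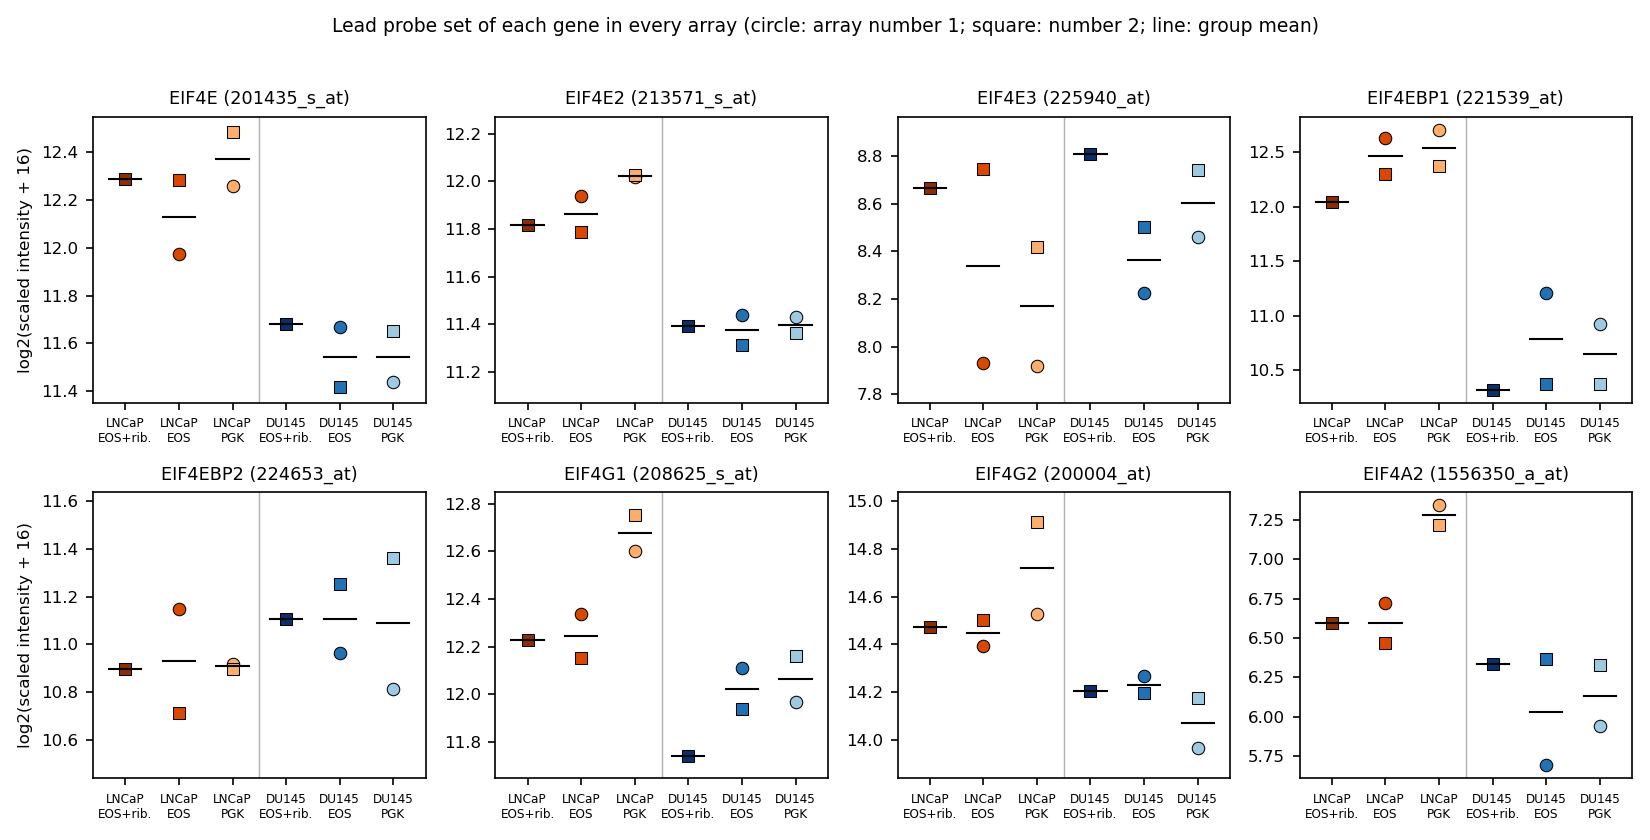
Level of the lead probe set of each of the 8 measured genes in every array, as log2(scaled intensity + 16), with LNCaP groups left of DU145 groups and the ribavirin, EOS and PGK groups in that order in each line. Circles are arrays numbered 1, squares are arrays numbered 2 and lines are group means; EIF4EBP1 lies at 12.04 to 12.70 in LNCaP and at 10.32 to 11.21 in DU145.

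EIF4E (Entrez 1977, chromosome 4, 98879276 to 98929133 on GRCh38.p14) is the canonical cap-binding subunit. Its lead probe set 201435_s_at read 12.29 in LNCaP EOS ribavirin, 11.98 and 12.28 in LNCaP EOS, and 12.26 and 12.48 in LNCaP PGK. The same probe set read 11.68 in DU145 EOS ribavirin, 11.67 and 11.42 in DU145 EOS, and 11.44 and 11.65 in DU145 PGK. The 5 LNCaP arrays all lay above the 5 DU145 arrays, and the difference was 0.67 ± 0.13 log2 (SE; limma adjusted p = 0.00322). From high to low the group means ran LNCaP PGK 12.37, LNCaP EOS ribavirin 12.29, LNCaP EOS 12.13, DU145 EOS ribavirin 11.68 and DU145 PGK and DU145 EOS at 11.54 each. Within a line, neighbours in that order did not differ beyond the spread of the arrays.

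The other EIF4E probe sets did not all read alike. At 201436_at the LNCaP arrays had 10.98, 10.98, 10.71, 10.67 and 10.49, against 10.17, 10.15, 10.07, 9.85 and 9.80 in the DU145 arrays, each in the order EOS ribavirin, EOS 1, EOS 2, PGK 1 and PGK 2. The groups did not overlap, and the difference was 0.77 ± 0.14 (adjusted p = 0.00189). At 201437_s_at the LNCaP arrays lay between 11.27 and 11.83 and the DU145 arrays between 11.07 and 11.31, with an overlap. Its difference of 0.40 ± 0.13 (adjusted p = 0.0377) was called in 9 of the 18 other settings run. The dim probe set 242674_at was at -0.16 ± 0.25 (adjusted p = 0.648), and 237718_at, at 4.23 to 5.55 over all arrays, did not pass the filter. With the line difference taken out, 201435_s_at correlated over the 10 arrays with 201437_s_at at r = 0.70 and with 201436_at at r = -0.38. These values share the arrays and the difference between the array numbers.

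EIF4E2 (Entrez 9470, chromosome 2, 232550689 to 232583644) encodes a cap-binding relative that does not engage the EIF4G scaffold and is known for silencing mRNAs with GIGYF proteins. Probe set 213571_s_at read 11.82 in LNCaP EOS ribavirin, 11.94 and 11.79 in LNCaP EOS and 12.02 and 12.03 in LNCaP PGK. In DU145 it read 11.39 in EOS ribavirin, 11.44 and 11.32 in EOS and 11.43 and 11.36 in PGK. No LNCaP array reached down to a DU145 array, and the difference was 0.51 ± 0.12 (limma adjusted p = 0.00666). At 209393_s_at the LNCaP arrays lay at 11.24 to 11.43 and the DU145 arrays at 10.54 to 10.78, a difference of 0.70 ± 0.13 (adjusted p = 0.00197). Probe set 213570_at was higher by 0.71 ± 0.24 (adjusted p = 0.0374) with overlapping arrays, a call kept in 10 of 18 other settings. The remaining one, 226734_at, was at 0.12 ± 0.18 (adjusted p = 0.616).

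EIF4E3 (Entrez 317649, chromosome 3, 71659363 to 71754773) encodes a cap binder with an atypical cap contact. Its probe set 225939_at read 5.49 in LNCaP EOS ribavirin, 5.24 and 5.97 in LNCaP EOS and 5.50 and 5.51 in LNCaP PGK, near the floor. It read 7.89 in DU145 EOS ribavirin, 6.77 and 7.31 in DU145 EOS and 7.44 and 7.73 in DU145 PGK. All LNCaP arrays lay below all DU145 arrays, with 0 of 5 LNCaP arrays and 5 of 5 DU145 arrays above the median of their array. It therefore passed the filter only through the line where it is high, and its difference of -1.97 ± 0.28 is a description. The log2 of intensity + 16 understates differences this close to the floor. Probe set 225941_at lay at 7.23 to 8.11 in LNCaP and at 8.18 to 8.89 in DU145, a difference of -0.78 ± 0.19 (adjusted p = 0.0106) that was not called over arrays numbered 2 only. The lead probe set 225940_at, at -0.20 ± 0.23 (adjusted p = 0.518), and 238461_at, at -0.20 ± 0.27 (adjusted p = 0.598), were not called. Their LNCaP and DU145 arrays overlapped.

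EIF4EBP1 (Entrez 1978, chromosome 8, 38030534 to 38060365), the inhibitor that keeps EIF4E from its scaffold, showed the largest difference among the lead probe sets of the members. Probe set 221539_at read 12.04 in LNCaP EOS ribavirin, 12.63 and 12.30 in LNCaP EOS and 12.70 and 12.38 in LNCaP PGK. In DU145 it read 10.32 in EOS ribavirin, 11.21 and 10.38 in EOS and 10.92 and 10.37 in PGK. The 2 lines were far apart in every state, by 1.76 ± 0.21 log2 (adjusted p = 0.000147), a 3.39-fold difference with a 95% interval of 2.46-fold to 4.67-fold. LNCaP was higher in 5 of 5 pairs of arrays matched for state and number, by 1.42 to 2.00. Taken as the log2 ratio of EIF4EBP1 to the EIF4E lead probe set within arrays, LNCaP exceeded DU145 by 1.08 on average and by 0.96 to 1.17 in the 5 matched pairs, a description with no test.

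EIF4EBP2 (Entrez 1979, chromosome 10, 70404145 to 70428618), the second such inhibitor, gave a split reading. Probe set 208770_s_at read 10.32, 10.07, 10.29, 10.18 and 10.36 in the LNCaP arrays and 9.44, 9.59, 9.50, 9.44 and 9.62 in the DU145 arrays, in the order EOS ribavirin, EOS 1, EOS 2, PGK 1 and PGK 2. The arrays of the lines did not overlap, and the difference was 0.75 ± 0.15 (adjusted p = 0.00290). Its lead probe set 224653_at was at -0.19 ± 0.17 (adjusted p = 0.403), 224645_at at 0.05 ± 0.17 and 208769_at at 0.03 ± 0.22, none of them called. Probe set 1570454_at lay at 4.15 to 6.11 and did not pass the filter. The 4 tested probe sets thus gave 1 call in 4, and with the line difference taken out the lead correlated at r = 0.78 with 224645_at and at r = -0.12 with 208770_s_at over the 10 arrays.

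EIF4G1 (Entrez 1981, chromosome 3, 184314606 to 184335358) encodes the main scaffold, which joins EIF4E, EIF4A and the poly(A)-binding protein. Its lead probe set 208625_s_at read 12.23 in LNCaP EOS ribavirin, 12.34 and 12.15 in LNCaP EOS and 12.60 and 12.75 in LNCaP PGK. In DU145 it read 11.74 in EOS ribavirin, 12.11 and 11.94 in EOS and 11.97 and 12.16 in PGK, so that the ranges of the lines overlapped by a narrow margin. The difference was 0.44 ± 0.12 (adjusted p = 0.0149), a call lost without DU145 PGK 1. The second probe set, 208624_s_at, was at 0.53 ± 0.30 (adjusted p = 0.196). It was called with array number as a block, at 0.56 (blocked adjusted p = 0.00791).

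EIF4G2 (Entrez 1982, chromosome 11, 10797046 to 10808926) encodes a scaffold that lacks the EIF4E site and serves cap-independent initiation. Probe set 200004_at read 14.47 in LNCaP EOS ribavirin, 14.39 and 14.50 in LNCaP EOS and 14.53 and 14.91 in LNCaP PGK. The DU145 values were 14.21 in EOS ribavirin, 14.27 and 14.19 in EOS and 13.96 and 14.18 in PGK. LNCaP lay above DU145 in every array, by 0.38 ± 0.11 (adjusted p = 0.0206), a call kept in 14 of 19 other settings and lost without DU145 PGK 1. The dim probe set 1557964_at was at 0.09 ± 0.28 (adjusted p = 0.832), and 217607_x_at, at 4.31 to 6.13, did not pass the filter.

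EIF4A2 (Entrez 1974, chromosome 3, 186783577 to 186789897), a helicase of the complex, was read by a dim probe set, 1556350_a_at. Its levels were 6.59 in LNCaP EOS ribavirin, 6.72 and 6.47 in LNCaP EOS and 7.34 and 7.22 in LNCaP PGK. In DU145 they were 6.33 in EOS ribavirin, 5.69 and 6.37 in EOS and 5.94 and 6.33 in PGK. It lay above the median of the array in 5 of 5 LNCaP arrays and 1 of 5 DU145 arrays, and so passed the filter through LNCaP alone. The arrays of the lines did not overlap, and the difference of 0.66 ± 0.27, which was not called, is a description. With array number as a block it was called, at 0.78, but a probe set kept through its high line alone is no test of that difference. Both PGK arrays of LNCaP stood above the other LNCaP arrays.

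**Figure D2:**
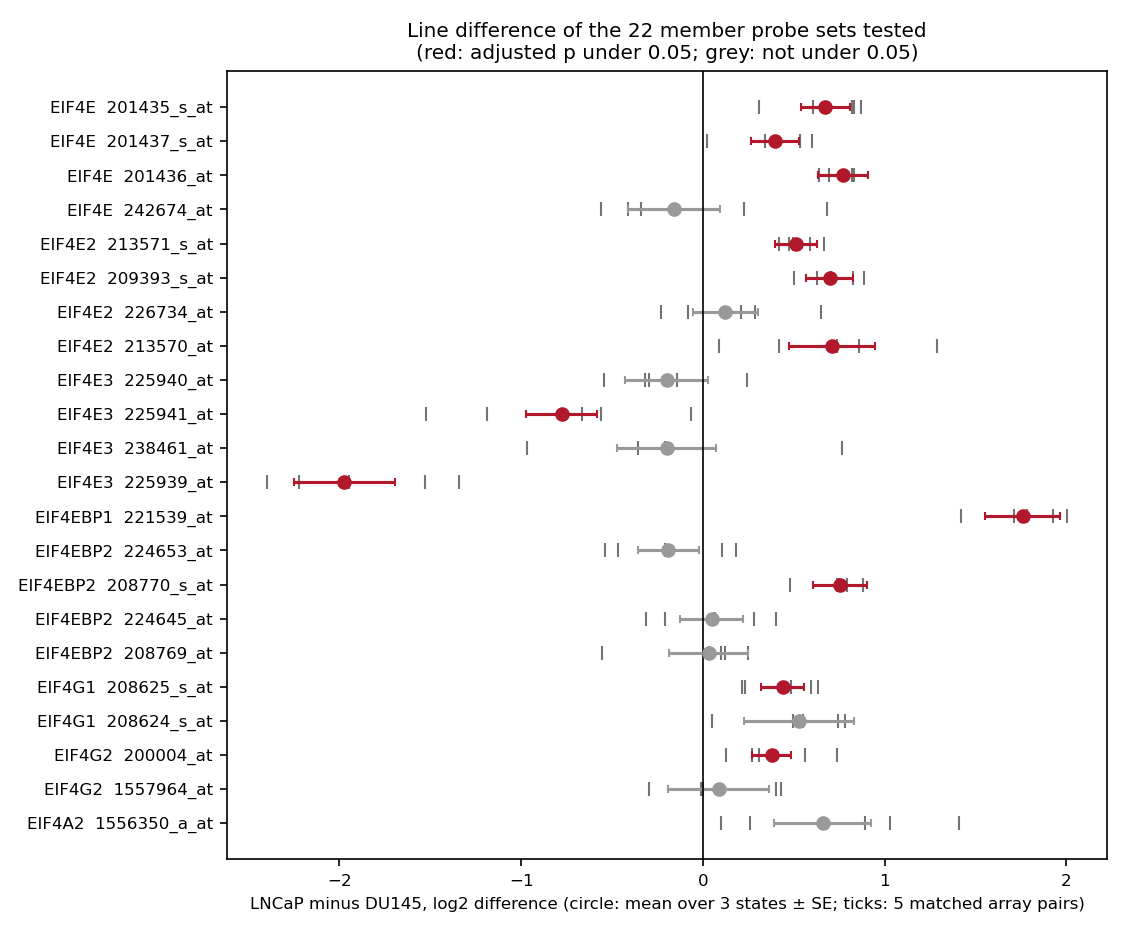
LNCaP minus DU145 on the log2 scale for the 22 member probe sets that passed the filter. Circles are means over the 3 states with their standard errors, ticks are the 5 pairs of arrays matched for state and number, and red marks an adjusted p under 0.05; EIF4EBP1 at 1.76 and EIF4E3 225939_at at -1.97 lie at the 2 ends.

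Probe sets of 1 gene often fell on different sides of the threshold between the lines. In all 6 genes with more than 1 tested probe set some were called and some were not. The direction was shared by all tested probe sets in EIF4E2, EIF4E3, EIF4G1 and EIF4G2, and mixed in EIF4E and EIF4EBP2. The count of called member probe sets was 8 without DU145 PGK 1 and 0 on the values as deposited, where the EOS and PGK groups each hold arrays of both deposited scales. With array number as a block it was 12 on the values as deposited.

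Other genes of the pathway were counted from lists chosen with earlier results known, at 1 lead probe set a gene. Over all genes 22.9% were called higher and 24.3% lower in LNCaP. Of the 8 measured members 5 were called higher and 0 lower at their lead probe set, with a median of 0.48 log2 against -0.04 over all genes. Among 18 partners and regulators of eIF4F 1 was called higher and 3 lower, with a median of 0.01. They were the decay helicase DDX6, higher by 0.95 ± 0.15, and CTIF at -1.16 ± 0.24, PAIP1, which stimulates the poly(A)-binding protein, at -0.56 ± 0.16, and the exon junction helicase EIF4A3 at -0.47 ± 0.10.

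Of 18 kinases, phosphatases and their regulators upstream of EIF4E and its binding proteins, 4 were called higher and 4 lower, with a median of 0.09. MKNK2, a kinase that phosphorylates EIF4E, was higher in LNCaP by 1.21 ± 0.13 (limma adjusted p = 9.79e-05). TSC2, an inhibitor of mTOR complex 1, was higher by 2.86 ± 0.35, DDIT4, which acts through it, by 1.50 ± 0.22, and RICTOR, a subunit of mTOR complex 2, was at -1.69 ± 0.21. Among 13 eIF3 subunits 3 were called higher and 2 lower, led by EIF3F at 0.65 ± 0.09 and EIF3I at 0.70 ± 0.13 on the higher side and EIF3H at -0.52 ± 0.11 and EIF3B at -0.65 ± 0.15 on the lower. Of 18 other initiation and elongation factors 5 were called higher and 2 lower. Of 15 mRNAs reported to depend on EIF4E for translation or export 4 were called in each direction, among them the polyamine enzyme ODC1 at 2.11 ± 0.17, VEGFA at 1.18 ± 0.20, the survival gene MCL1 at -1.45 ± 0.11 and FGF2 at -4.83 ± 0.30.

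EOS selection was compared with the PGK control to ask what the OCT4- and SOX2-driven reporter enriches. No member probe set passed the threshold in either line, in their mean or in the difference between the lines, and the background was 0% of 33488 probe sets in each of these 4 comparisons. An unadjusted p under 0.05 was found for 2 of the 22 member probe sets in LNCaP, 0 in DU145, 0 in the mean and 1 in the difference between the lines. Over all probe sets the counts were 1252 in LNCaP, 647 in DU145, 841 in the mean and 969 in the difference, which is 3.74%, 1.93%, 2.51% and 2.89%. With array number as a block the unadjusted member counts were 3, 0, 1 and 2 in the same order, and 0 were called. Over all 33488 probe sets the block gave 2859, 1410, 1900 and 2284. The member differences ran from -0.69 to 0.77 log2 in LNCaP, with a median of -0.03, and from -0.55 to 0.64 in DU145, with a median of 0.01.

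Cap binders came first. The EIF4E lead probe set differed between EOS and PGK by -0.28 and -0.20 in the LNCaP pairs numbered 1 and 2, and by 0.23 and -0.23 in the DU145 pairs. The fitted differences were -0.24 ± 0.20 in LNCaP (95% interval -0.69 to 0.21; adjusted p = 1.00) and 0.00 ± 0.20 in DU145 (-0.46 to 0.45; adjusted p = 1.00). Another EIF4E probe set, 201436_at, had 0.30 and 0.22 in the LNCaP pairs and 0.29 and 0.27 in the DU145 pairs, above 0 in all 4. Its mean over the lines was 0.27 ± 0.15 (adjusted p = 1.00), in the direction opposite to the lead probe set. EIF4E2 lay at -0.16 ± 0.17 in LNCaP and -0.02 ± 0.17 in DU145 at its lead probe set.

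EIF4E3 225941_at had the smallest p among members in LNCaP. It read 8.04 and 8.11 in LNCaP EOS cells, against 7.23 and 7.37 in LNCaP PGK cells, and both EOS arrays lay above both PGK arrays. In DU145 it read 8.60 and 8.18 in EOS cells, against 8.42 and 8.89 in PGK cells, with an overlap. The difference was 0.77 ± 0.29 in LNCaP (unadjusted p = 0.0262, limma adjusted p = 1.00) and -0.27 ± 0.29 in DU145. The test of the difference between the lines gave 1.04 ± 0.41 (unadjusted p = 0.0322, adjusted p = 1.00). None of these passed after adjustment.

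EIF4EBP1 was at -0.08 ± 0.31 in LNCaP EOS cells (95% interval -0.77 to 0.62) and at 0.14 ± 0.31 in DU145 EOS cells (-0.55 to 0.84). These intervals reach from 0.59-fold to 1.54-fold in LNCaP and from 0.68-fold to 1.79-fold in DU145. EIF4EBP2 was at 0.02 ± 0.25 in LNCaP and 0.02 ± 0.25 in DU145 at its lead probe set. Its dimmer probe sets 224645_at and 208769_at lay above 0 in 4 of 4 pairs, at means of 0.18 ± 0.18 and 0.24 ± 0.23.

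The scaffolds and the helicase lay below 0 in LNCaP EOS cells at their lead probe sets, without passing the test. EIF4G1 208625_s_at read 12.34 and 12.15 in LNCaP EOS cells, against 12.60 and 12.75 in LNCaP PGK cells, with no overlap. Its difference was -0.43 ± 0.18 (95% interval -0.83 to -0.03; unadjusted p = 0.0376, limma adjusted p = 1.00). In DU145 the same probe set was at -0.04 ± 0.18. The second EIF4G1 probe set, 208624_s_at, was at -0.53 ± 0.46 in LNCaP, with both pairs below 0, and at -0.03 ± 0.46 in DU145. With array number as a block its LNCaP standard error was 0.19 (blocked limma unadjusted p = 0.0247, blocked adjusted p = 0.549). EIF4G2 200004_at was at -0.27 ± 0.16 in LNCaP and 0.16 ± 0.16 in DU145. The dim EIF4G2 probe set 1557964_at went the other way in LNCaP, at 0.51 ± 0.41 with both pairs above 0, and had a mean over the lines of 0.57 ± 0.29 (limma adjusted p = 1.00). EIF4A2 read 6.72 and 6.47 in LNCaP EOS cells, against 7.34 and 7.22 in LNCaP PGK cells, a difference of -0.69 ± 0.40 (unadjusted p = 0.116, adjusted p = 1.00), and was at -0.10 ± 0.40 in DU145.

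**Figure D3:**
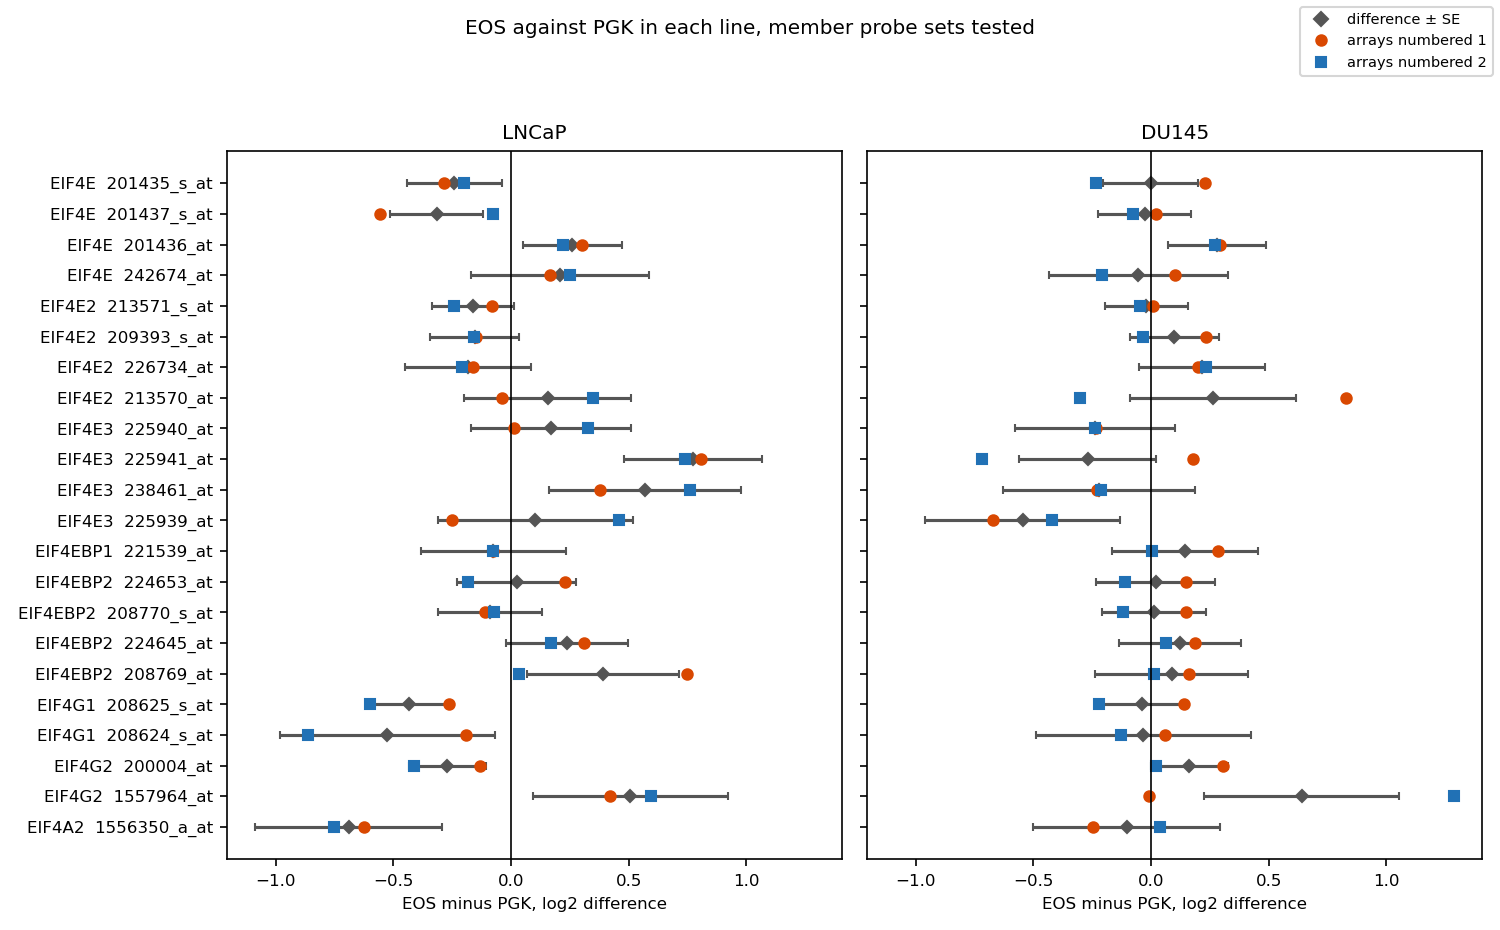
EOS minus PGK on the log2 scale for the 22 member probe sets, LNCaP left and DU145 right. Diamonds are fitted differences with standard errors, circles the pair of arrays numbered 1 and squares the pair numbered 2; no probe set passed the threshold, and EIF4E3 225941_at in LNCaP lies at 0.77.

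In the same comparison no gene of the wider lists was called. The 15 mRNAs reported to depend on EIF4E had a median of 0.09 in LNCaP EOS cells and 0.21 in DU145 EOS cells, against 0.05 and -0.02 over all genes. In DU145 13 of the 15 lay above 0, among them the thymidylate synthase gene TYMS at 0.25 ± 0.14 and MYC at 0.21 ± 0.16, and in LNCaP 9 did, with VEGFA at 0.70 ± 0.29 (unadjusted p = 0.0407, limma adjusted p = 1.00). The share of all genes above 0 was not counted, so these counts are not read as a trait of the list. The 13 eIF3 subunits had medians of -0.12 in LNCaP and 0.08 in DU145.

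Ribavirin-treated EOS cells were compared with EOS cells to ask whether member mRNAs differed under a compound reported to act on EIF4E. No member probe set was called in LNCaP, in DU145, in their mean or in the difference between the lines, and 0% of 33488 probe sets were called in each. Each line had 1 ribavirin array, whose spread was taken to equal that of the remaining groups. The labels tie it to EOS number 2, and the differences from that array are therefore given beside the fitted ones. An unadjusted p under 0.05 was found for 0 of the 22 member probe sets in each form. The counts over all probe sets were 882 (2.63%) in LNCaP, 700 (2.09%) in DU145, 841 (2.51%) in the mean and 683 (2.04%) in the difference between the lines. The members' median absolute difference was 0.14 in LNCaP and 0.19 in DU145, against 0.27 and 0.25 over all probe sets. Members and all probe sets were not matched for intensity, so these medians are a description only.

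The reported target itself, EIF4E, read 12.29 in LNCaP ribavirin cells, against 11.98 and 12.28 in LNCaP EOS cells. It read 11.68 in DU145 ribavirin cells, against 11.67 and 11.42 in DU145 EOS cells. The ribavirin array exceeded EOS 2 by 0.0022 in LNCaP and by 0.27 in DU145. The fitted difference over both lines was 0.15 ± 0.17 (95% interval -0.24 to 0.54, or 0.84-fold to 1.46-fold; limma adjusted p = 1.00), and 0.09 with array number as a block (blocked adjusted p = 1.00). The other probe sets past the filter had means of 0.18 ± 0.17 at 201437_s_at, 0.10 ± 0.18 at 201436_at and 0.08 ± 0.33 at 242674_at, the last 2 at 0.17 each with the block. At their lead probe sets EIF4E2 was at -0.02 ± 0.15, and 0.03 with the block, and EIF4E3 was at 0.39 ± 0.29, and 0.15 with the block. EIF4E3 225939_at, the probe set that was higher in DU145, read 7.89 in DU145 ribavirin cells, against 6.77 and 7.31 in DU145 EOS cells, a difference of 0.85 ± 0.51 (adjusted p = 1.00).

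EIF4EBP1 read 12.04 in LNCaP ribavirin cells, against 12.63 and 12.30 in LNCaP EOS cells, and 10.32 in DU145 ribavirin cells, against 11.21 and 10.38 in DU145 EOS cells. In both lines the ribavirin array was the lowest of the line. The fitted mean was -0.45 ± 0.27 (95% interval -1.05 to 0.16; limma adjusted p = 1.00). With array number as a block it was -0.19 (blocked adjusted p = 1.00), and against EOS 2 alone it was -0.26 in LNCaP and -0.05 in DU145. The number 1 arrays of EIF4EBP1 lay above the number 2 arrays in all 4 groups that hold both.

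Scaffolds and helicase gave no call either. EIF4G1 208625_s_at was at -0.02 ± 0.22 in LNCaP and -0.28 ± 0.22 in DU145. Its other probe set, 208624_s_at, had a mean of 0.56 ± 0.40, and 0.14 with the block. EIF4G2 200004_at was at 0.03 ± 0.20 in LNCaP and -0.03 ± 0.20 in DU145, with a mean of 0.00 (95% interval -0.32 to 0.32), and -0.08 with the block. EIF4EBP2 224653_at had a mean of -0.02 ± 0.22, and -0.07 with the block. EIF4A2 had a mean of 0.15 ± 0.34, and 0.07 with the block.

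**Figure D4:**
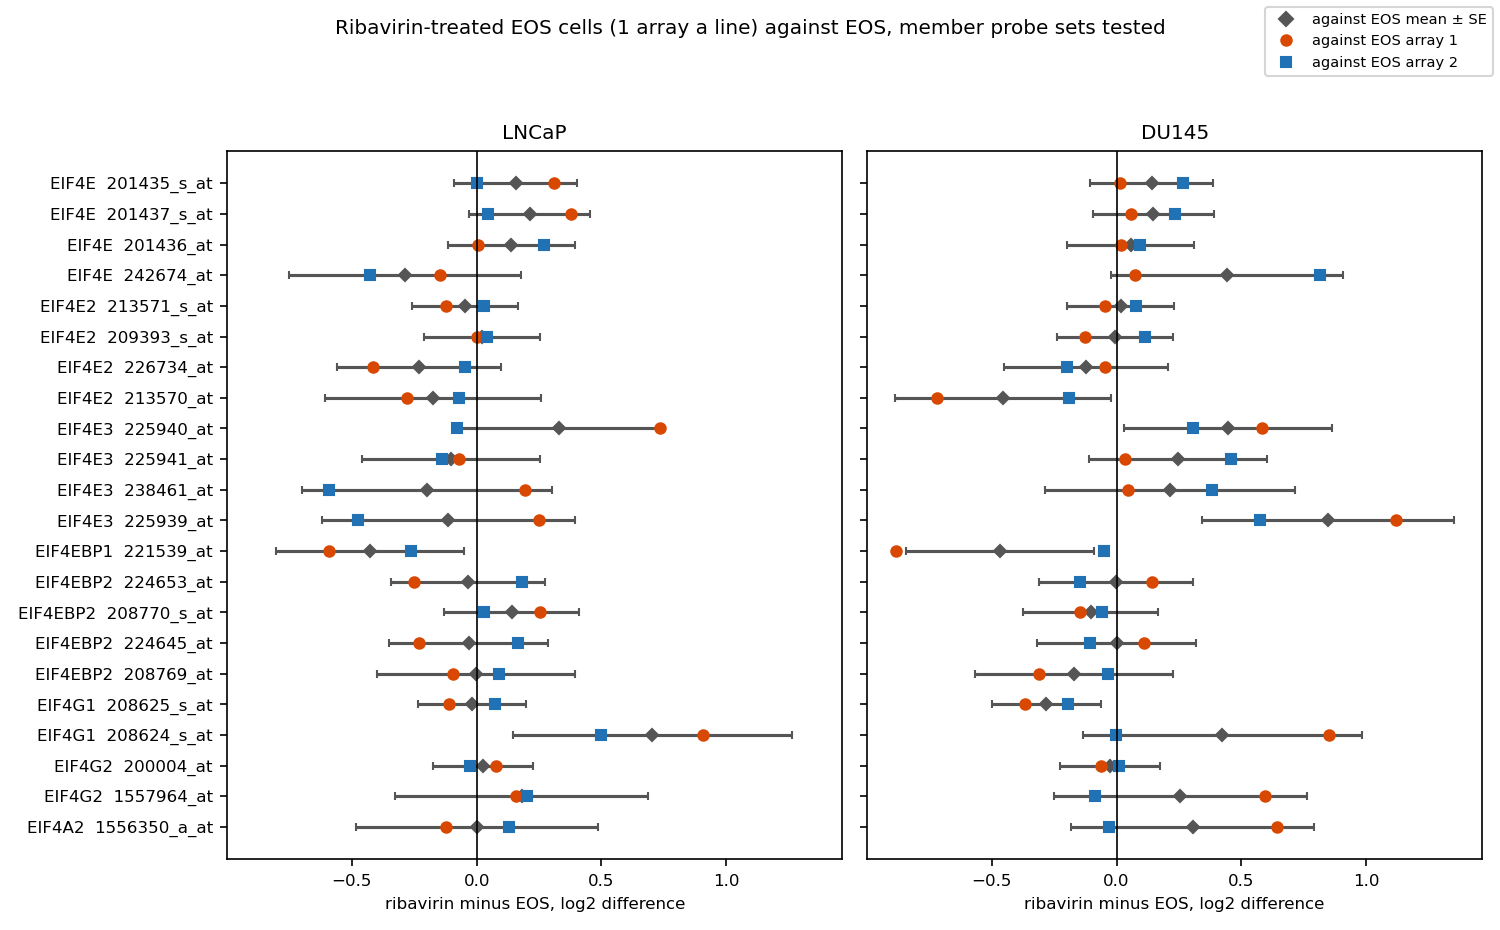
Ribavirin minus EOS on the log2 scale for the 22 member probe sets, LNCaP left and DU145 right, with 1 ribavirin array a line. Diamonds are differences from the mean of both EOS arrays with standard errors, circles are differences from EOS 1 and squares from EOS 2; no probe set passed the threshold, and EIF4EBP1 lies at -0.43 in LNCaP and -0.47 in DU145.

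Of the 15 mRNAs reported to depend on EIF4E, 13 lay below 0 in the mean over both lines and 0 were called, with a median of -0.13 against 0.01 over all genes. Those of smallest p were FGF2 at -0.66 ± 0.39, the ribonucleotide reductase subunit RRM2 at -0.31 ± 0.24 (-0.17 with array number as a block), TYMS at -0.13 ± 0.12 and MCL1 at -0.16 ± 0.14. The share of all genes below 0 was not counted, so the 13 of 15 are not read as a trait of the list. Their signs come from the fit without the block, where the EOS means include arrays numbered 1. EIF4E acts on translation and export, which total RNA does not measure. Among the kinases AKT1S1, a component of mTOR complex 1, was at -1.11 ± 0.40 in DU145 (unadjusted p = 0.0202, limma adjusted p = 1.00) and had a mean of -0.60 ± 0.28. The ribavirin and EOS comparisons share the EOS arrays, so their values are given side by side only.

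Differences between the array numbers were as large as those between states for several members. Number 2 minus number 1 of the same group was -0.33 in LNCaP EOS, -0.33 in LNCaP PGK, -0.83 in DU145 EOS and -0.55 in DU145 PGK for EIF4EBP1. For EIF4G1 208624_s_at it was 0.41, 1.08, 0.85 and 1.04 in the same order, above 0 in each, whereas the mean for EIF4G1 208625_s_at was 0.00. EIF4E3 225940_at had a mean of 0.47 and lay above 0 in all 4 groups. The EIF4E lead probe set had a mean of 0.12, above 0 in 3 of 4.

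**Figure D5:**
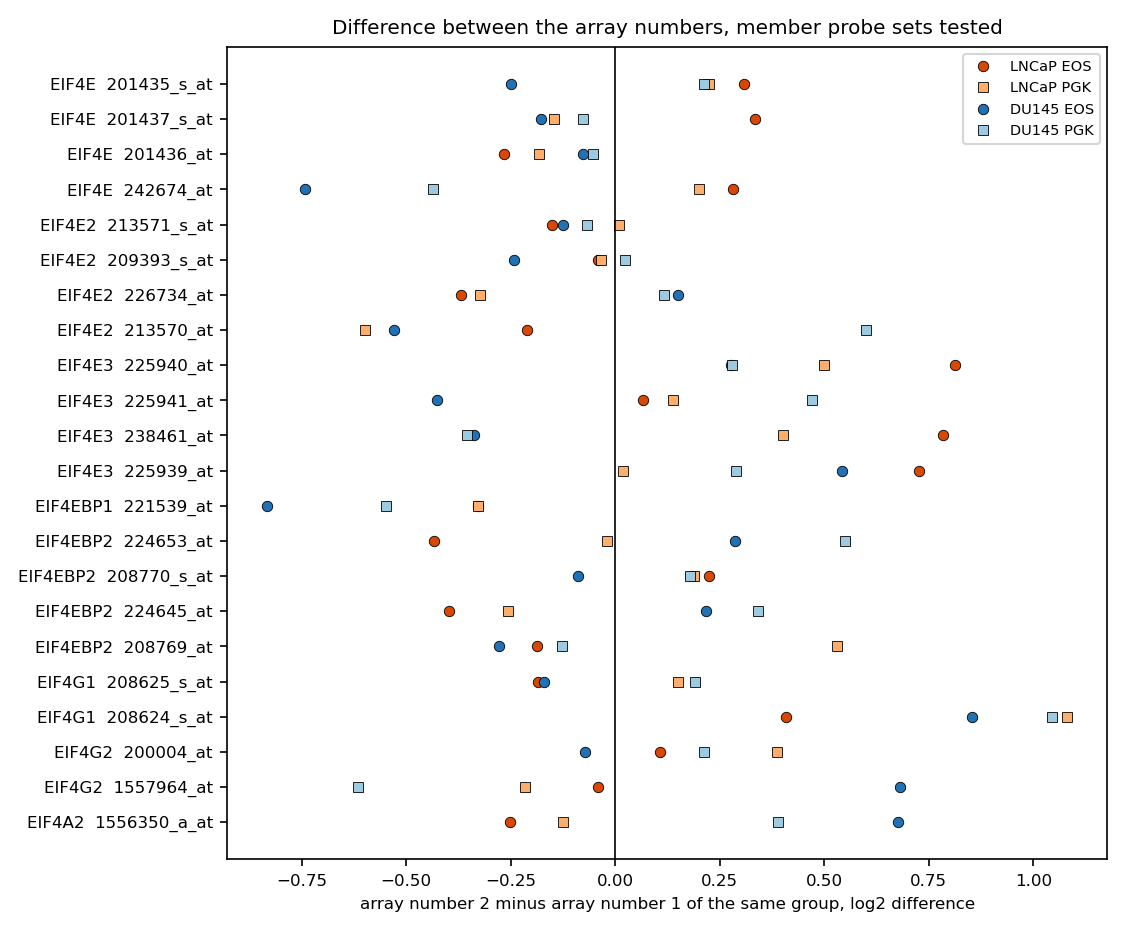
Array number 2 minus array number 1 of the same group on the log2 scale for the 22 member probe sets, in the 4 groups that hold both numbers. Each point is 1 group; EIF4EBP1 lies below 0 and EIF4G1 208624_s_at above 0 in all 4.

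The genes whose levels were most like the EIF4E lead probe set over the 10 arrays, by Pearson correlation among lead probe sets, were GPAM, PLRG1, NANS, WWP1 and CHERP, with r from 0.98 to 0.99. With the line difference taken out, r was 0.86 to 0.92. All 10 arrays share the difference between the lines and that between the array numbers, and these values are a description only.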

How the data were processed

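Gene expression was measured on 10 Affymetrix arrays of 54675 probe sets. The deposited values are linear intensities, 1 for each probe set and array, with MAS5 and affy named, in no given role, per the submitters' processing notes. The versions, the background correction and the scaling target are not given in the sources used here. As deposited, the trimmed mean intensity was 500 on the 4 arrays numbered 1 and 96.6 to 126.5 on the 6 arrays numbered 2. Each array was therefore scaled to a mean of 500 after trimming 2% at each end, 16 was added and log2 was taken.

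The 62 control probe sets were left out. A probe set was kept if it lay above its array's median in at least 2 arrays, which left 33488 of 54613. Genes came from GEO's platform annotation, through probe sets with exactly 1 symbol. The lead probe set of a gene is the one with the highest mean. Gene positions and upstream bases came from RefSeq on GRCh38.p14.

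One model of the 6 groups, with 4 residual degrees of freedom, was fitted in limma 3.58.1 (R 4.3.3) with an intensity trend, and p-values were adjusted over all kept probe sets by Benjamini-Hochberg. The single ribavirin array of each line has no spread of its own. The number of arrays limits the precision. The fit was tested on simulated data. Array numbers were checked for pairing through the deviations of PGK and EOS arrays from their group means, which correlated at 0.19 in DU145 and 0.45 in LNCaP, and the deposited scale also follows the number. Fits with the number as a block are quoted where they change a call, and beside the ribavirin means over both lines that they move by more than 1.5 times.

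Members and lists were chosen with earlier results of these data known. All members are named. In the other lists the 4 genes with the smallest p in a comparison may be named. The genes most like EIF4E are the 5 with the highest correlation to its lead probe set. Alternatives were the deposited scale, quantile normalization, pseudocounts of 1 and 64, no filter, 1 probe set a gene, no trend, the block, subsets of arrays and leaving out each EOS or PGK array in turn. The deposited scale with the block was chosen after seeing the data.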

Additional observations from a re-analysis of the deposited data

Results flagged for a closer look

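In 5 member probe sets the EOS minus PGK difference was above 0 in both pairs of arrays of one line and below 0 in both pairs of the other. None of the differences between the lines passed the test (limma adjusted p = 1.00 in each). Each line had 2 pairs, and 22 member probe sets were looked at. The share of all probe sets with such opposite pairs was not counted, so the 5 are not read as a trait of the members. EIF4E3, the atypical cap binder, had a LNCaP minus DU145 difference of 0.41 at 225940_at and 0.79 at 238461_at. These 2 probe sets lay above 0 in the LNCaP pairs and below 0 in the DU145 pairs. The other tested EIF4E3 probe sets were mixed, with 1 of 2 pairs above 0 for 225941_at in DU145 and for 225939_at in LNCaP. EIF4E2 226734_at was at -0.40, the scaffold EIF4G2 200004_at at -0.43 and the inhibitor EIF4EBP1 221539_at at -0.22, each below 0 in the LNCaP pairs and above 0 in the DU145 pairs.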

How the results depend on the processing

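No member of the line comparison reversed while called. Of 404 alternative values for members in that comparison 362 kept their side of the threshold, 34 lost the call and 8 gained it. Array number as a replicate block gave 16546 called probe sets and 14 called members, against 13991 and 12 without it. On the deposited scale, which differs between the 2 arrays of each EOS and PGK group, 602 probe sets and 0 members were called. The same scale with the replicate block, chosen after seeing the data, gave 16317 called probe sets and 12 called members. Of these members 10 were higher and 2 lower in LNCaP, and EIF4E 201437_s_at and EIF4G2 200004_at were not among them. The cause of the lower counts was not tested. With 1 probe set a gene 6932 probe sets and 5 members were called, of fewer tested, and with PGK controls only 8627 probe sets were called. Leaving out 1 EOS or PGK array gave 11709 to 13792 called probe sets and 8 to 12 called members, the lowest member count without DU145 PGK 1. There EIF4E 201437_s_at, EIF4E2 213570_at, EIF4G1 208625_s_at and EIF4G2 200004_at lost their calls. Quantile normalization moved the median of all line differences to 0.02, against -0.07. For EOS against PGK, the deposited scale with the replicate block, chosen after seeing the data, called 48 probe sets in LNCaP, 24 in DU145, 5 in the mean and 56 in the difference between the lines. The deposited scale also moved the median of all EOS differences in DU145 to -0.15, against 0.01, and that of the difference between the lines to 0.18, against 0.03. Without LNCaP PGK 1 the EOS comparison in LNCaP called 4 probe sets, and 0 without any other EOS or PGK array. Over 2748 alternative values of members in the EOS and ribavirin comparisons 0 were called and 215 changed sign. The deposited scale was not run for ribavirin, whose EOS controls mix both scales. The ribavirin comparison rests on 1 treated array a line.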
